A study of Homo sapiens with 8 samples.

Results

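The genes of the 4 HOX clusters, with MEIS1 and PBX3, were followed in the human line KG1a, which grows as immature CD34-positive acute myeloid leukemia cells. Every gene whose symbol is HOX, a cluster letter from A to D and a number was taken, and MEIS1 and PBX3 were added, which gave 41 of the 25168 genes in the count table. The members comprise 11 HOXA, 10 HOXB, 9 HOXC and 9 HOXD genes and the 2 cofactor genes. The cells were grown for 48 h in DMSO, the vehicle control, or under TAK-981 at 5 µM, venetoclax (VEN in the labels) at 1 µM, or both drugs at these doses, called the combination here. TAK-981 inhibits the SUMO-activating enzyme and so the attachment of the small protein SUMO to other proteins, and venetoclax inhibits the anti-apoptotic protein BCL2. RNA sequencing gave 2 libraries per group, 8 in all. All groups are the same line, and the labels do not tell whether a group's 2 libraries are independent cultures. Every p-value therefore reflects only how these libraries scatter, which may be technical.

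HOX genes encode homeodomain transcription factors that lay out the body axis in the embryo and are reused in blood formation, where the HOXA cluster is active in stem and progenitor cells and shut off as the cells mature. Their proteins bind DNA together with partners of the PBX and MEIS families, which are homeodomain proteins of the TALE class. Persistent HOXA9 expression with MEIS1 or PBX3 is a feature of many acute myeloid leukemias, in particular those with KMT2A rearrangements or NPM1 mutations, and the clusters are kept on by KMT2A and menin complexes and kept off by Polycomb complexes.

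Before the levels, the DNA in front of 3 members is shown because they are the best-expressed HOXA gene (HOXA9), the HOXA gene beside it that fell with the combination (HOXA10), and the cofactor gene that also fell (PBX3). The windows are the 249 bases upstream of a RefSeq transcript start in GRCh38.p14, printed 5′ to 3′ on the gene's strand. Capitals mark the letters CCAAT, read on either strand, in the HOXA windows, and TGACAG, the core letters bound by MEIS and PKNOX proteins, read on either strand, in the PBX3 window. HOXA9 is encoded on the minus strand and its window is chr7:27165539-27165787. The HOXA10 window, chr7:27174322-27174570 on the minus strand, belongs to the shorter transcript and lies inside the span the table gives to HOXA9. The PBX3 window is chr9:125747933-125748181 on the plus strand.
HOXA9: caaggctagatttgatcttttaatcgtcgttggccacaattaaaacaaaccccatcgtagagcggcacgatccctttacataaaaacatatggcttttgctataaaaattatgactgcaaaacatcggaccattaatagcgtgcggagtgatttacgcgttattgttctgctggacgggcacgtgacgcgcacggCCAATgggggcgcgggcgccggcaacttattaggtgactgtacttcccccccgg
HOXA10: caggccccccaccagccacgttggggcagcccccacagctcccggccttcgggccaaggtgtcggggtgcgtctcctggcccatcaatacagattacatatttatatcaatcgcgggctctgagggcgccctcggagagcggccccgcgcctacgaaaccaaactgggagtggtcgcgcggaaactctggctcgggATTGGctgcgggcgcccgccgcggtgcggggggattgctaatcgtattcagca
PBX3: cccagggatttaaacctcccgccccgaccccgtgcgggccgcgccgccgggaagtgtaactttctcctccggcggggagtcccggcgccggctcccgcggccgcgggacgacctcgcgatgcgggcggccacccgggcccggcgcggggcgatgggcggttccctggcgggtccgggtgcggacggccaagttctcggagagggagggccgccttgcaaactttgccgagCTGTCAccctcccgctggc

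Of the 13 members tested below, 9 had entries in the RefSeq promoter table, with 16 windows in all. CCAAT was found in 8 of these 16 windows, beside 32% of 35116 windows of the same length over all genes. TGACAG was found in 3 of the 16, beside 13%, and TGATNNAT, the letters of a joint HOX and PBX site, in 1, that of HOXA2, beside 6.46%. These are matches of letters on either strand and describe the windows only.

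KG1a expressed the HOXA cluster and, of the HOXB cluster, mainly HOXB2. By the deposited counts HOXC, HOXD and MEIS1 were nearly silent. Summed over the 8 libraries, the HOXA cluster held 66362 counts, 84.2% of all HOX counts, and the HOXB cluster 12359 counts, or 15.7%. HOXC genes together held 10 counts (0.0127%) and HOXD genes 38 (0.0482%). Library totals ran from 13204588 to 26304900 counts. Levels are given as counts per 1000000 counts of the TMM-scaled library size (CPM), and as CPM per kb of gene length where genes are compared with each other.

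Within the HOXA cluster 10 of 11 genes had enough counts for a test, the exception being HOXA13, the gene at the end of the cluster, with 0 counts. Only HOXB2 and HOXB3 of the 10 HOXB genes did, and no HOXC or HOXD gene. With PBX3 this makes 13 tested members. Of the other 28 members, 19 had 0 counts in every library: HOXA13, HOXB1, HOXB4, HOXB6, HOXB8, HOXB13, HOXC5, HOXC6, HOXC8, HOXC11, HOXC12, HOXC13, HOXD1, HOXD3, HOXD4, HOXD8, HOXD9, HOXD10 and HOXD11. A count of 0 over the 8 libraries allows a level of up to 0.0184 CPM (3 counts, counting error only). That limit does not cover reads shared between genes, whose handling is not given in the sources used here. On the same strand HOXB4 lies within the span of HOXB3, HOXB8 within that of HOXB7 and HOXD4 within that of HOXD3. The remaining 9 held 1 to 28 counts each over all libraries and 70 together, namely HOXB5 (2 counts), HOXB7 (1), HOXB9 (4), HOXC4 (1), HOXC9 (7), HOXC10 (2), HOXD12 (28), HOXD13 (10) and MEIS1 (15).

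In vehicle the order per length was led by HOXA9, the HOX factor most tied to myeloid leukemia, at 61.8 CPM per kb. HOXB2 followed at 32.7, then HOXA5 at 24.5, HOXA7 at 22.2, HOXA10 at 17.2 and PBX3 at 14.9 CPM per kb, with no overlap between neighbours in the 2 vehicle libraries. HOXA6 (8.34 CPM per kb) and HOXA3 (6.83) overlapped each other and stood above HOXA4 (5.60). Low among the tested members were HOXA2 at 1.31, HOXA11 at 0.512 and HOXB3 at 0.120 CPM per kb. HOXA9 also led in each treated group, at 73.8 CPM per kb with TAK-981, 85.8 with venetoclax and 70.0 with the combination. HOXB2 came close to it with TAK-981, at 70.5 CPM per kb, and stood at 59.5 with the combination. With venetoclax HOXB2 (29.2 CPM per kb) and HOXA7 (32.9) overlapped.

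**Figure D1:**
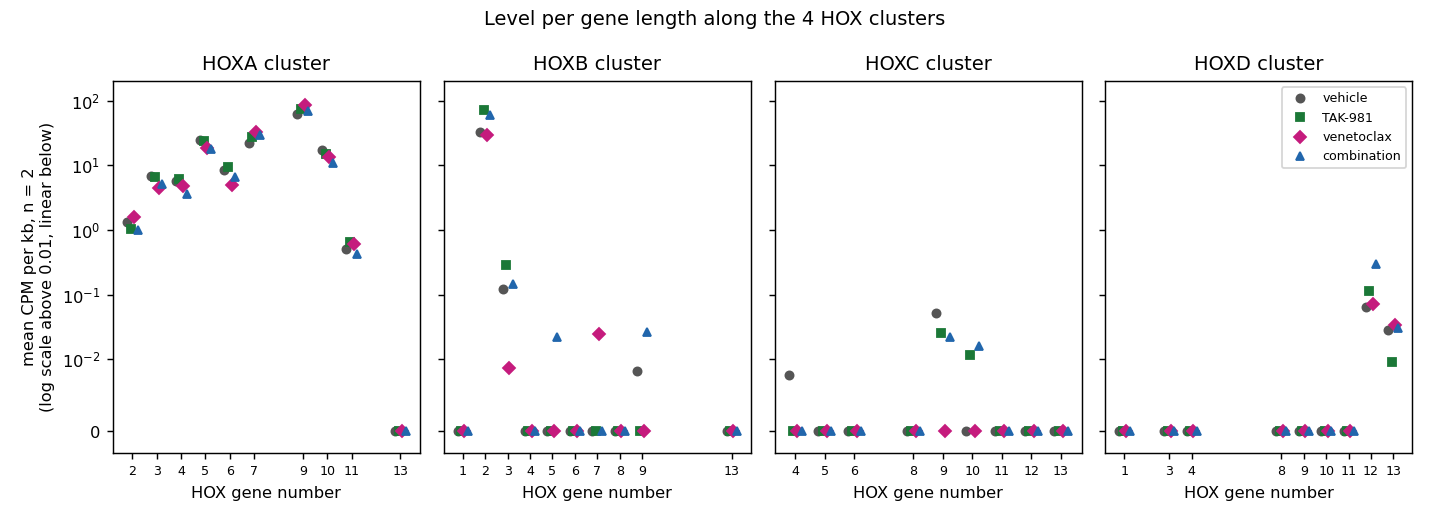
Mean level of HOX genes (CPM per kb, n = 2 libraries per group, log scale above 0.01 and linear below) against its number in the cluster, 1 panel per cluster and 1 symbol per group. The HOXA genes from 2 to 11 and HOXB2 stand above the rest, and HOXA9 reaches 61.8 to 85.8 CPM per kb.

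The venetoclax libraries differed most from each other, which bears on every comparison. Over the 13 tested members the median absolute log2 difference between replicates was 0.493 for venetoclax, against 0.141 for vehicle, 0.123 for TAK-981 and 0.139 for the combination. Over the 9858 genes of at least 5 CPM it was 0.262 for venetoclax and between 0.0880 and 0.101 for the other groups. All 4 groups share 1 estimate of the spread in the edgeR fit, so this difference enters every adjusted p-value below. In bulk RNA fewer cells of a type and less RNA per cell cannot be told apart.

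TAK-981 against vehicle addresses what blocking SUMOylation alone does. HOXB2 rose 2.15-fold, and the other tested members did not pass the test. By edgeR's quasi-likelihood test with Benjamini-Hochberg adjustment over 12843 tested genes (adjusted p under 0.05, called below), 1 of the 13 tested members was called, beside 12.2% of all tested genes. The median log2 fold change of the tested members was 0.14, and that of all tested genes 0.00.

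HOXB2 encodes a homeodomain factor at the anterior end of its cluster (chr17:48542655-48544989, hg38, minus strand). Its level was 52.5 and 51.9 CPM in vehicle, 112 and 112 CPM with TAK-981, 54.5 and 38.7 CPM with venetoclax, and 90.5 and 99.3 CPM with the combination. The 4 libraries with TAK-981 were all above the 4 without it. HOXB2 rose by a log2 fold change of 1.11 (SE 0.15) with TAK-981 (edgeR adjusted p = 0.00204), and it was called in all 16 alternative analyses of that comparison, at 1.10 to 1.11. Its share of all HOX counts was 11.6% and 11.9% in vehicle and 20.4% and 20.8% with TAK-981. With venetoclax that share was 9.35% and 9.54%, and with the combination 18.4% and 21.2%.

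For HOXB2 the change with TAK-981 was also seen on top of venetoclax, where the combination against venetoclax gave 1.04 (SE 0.15, edgeR adjusted p = 0.00118). The combination against vehicle gave 0.86 (SE 0.15, adjusted p = 0.00301). Venetoclax alone against vehicle gave -0.17 (SE 0.15, adjusted p = 0.434), with overlapping groups, and the interaction term was -0.07 (SE 0.21, adjusted p = 0.875). HOXB2 shares 1439 bases with the antisense gene HOXB-AS1, and whether the counting used strand is not given in the sources used here, so reads of the overlap cannot be assigned to one of them. HOXB-AS1 counts equalled 17.1% and 13.9% of the HOXB2 counts in vehicle and 15.3% and 11.8% with TAK-981.

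No HOXA gene was called with TAK-981. Of the 10 tested HOXA genes, edgeR called 0, with 1 at an unadjusted p under 0.05, and DESeq2 and limma-voom also called 0. The HOXA cluster summed to 397 and 385 CPM in vehicle and 436 and 425 CPM with TAK-981, and the HOXB cluster to 53.6 and 52.5 against 115 and 114 CPM. The calls depended on the libraries fitted, for a cause that was not tested. Without both venetoclax libraries 6 of 13 tested members were called, among them HOXA7, HOXA9, HOXB2, HOXB3 and PBX3, beside 30.2% of all genes.

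**Figure D2:**
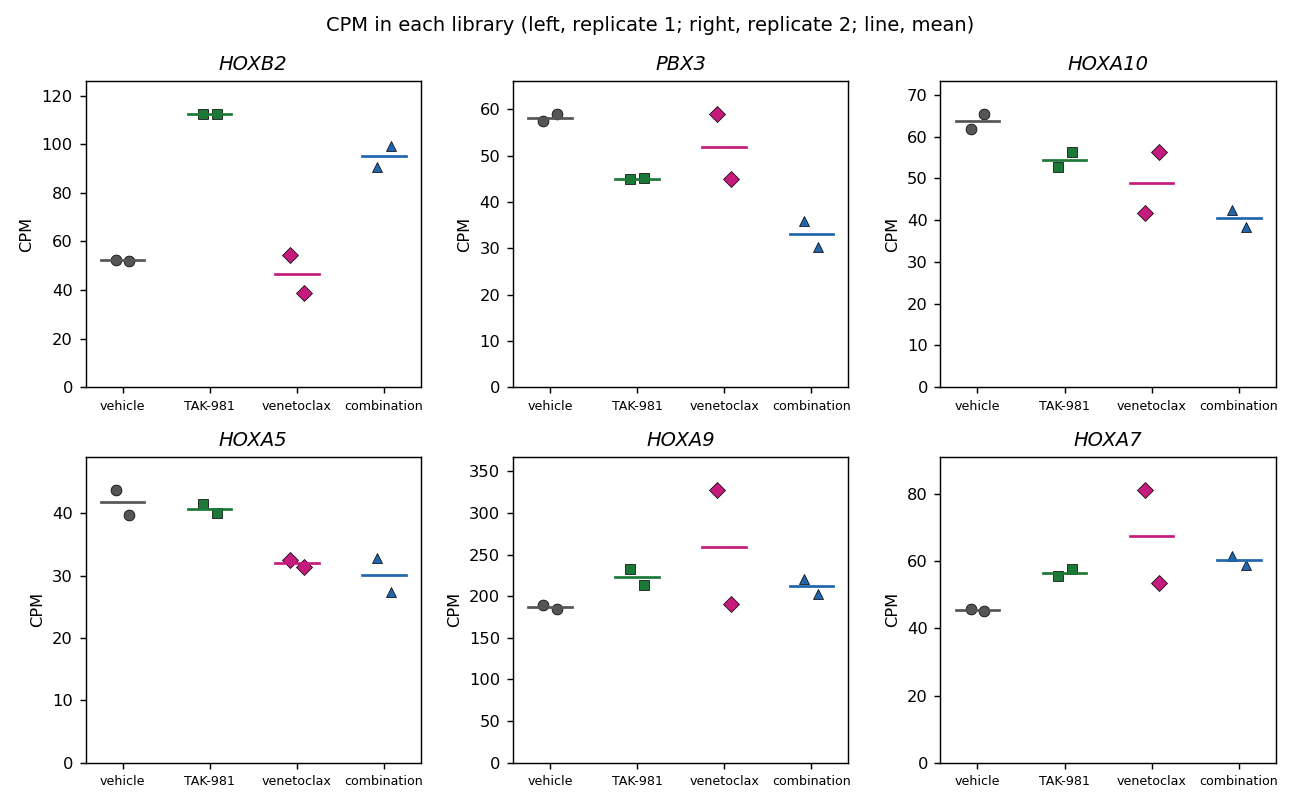
CPM of HOXB2, PBX3, HOXA10, HOXA5, HOXA9 and HOXA7 in each library (left point replicate 1, right point replicate 2, line the mean of 2), with the y axis from 0. HOXB2 is near 112 CPM with TAK-981 and near 52 CPM in vehicle, PBX3 and HOXA10 have their lowest means with the combination, and the 2 venetoclax libraries stand apart for HOXA9 and HOXA7.

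Venetoclax against vehicle addresses what BCL2 inhibition alone does. edgeR called 4 of the 13 tested members, beside 20.8% of all tested genes: HOXA3, HOXA6 and HOXB3 fell and HOXA7 rose. The HOXA6 and HOXA7 calls were lost with limma-voom (adjusted p = 0.0547 and 0.0620). Without venetoclax replicate 1 the HOXA7 rise, the only one called, was 0.24 on the log2 scale. The median log2 fold change was -0.17 over the tested members and 0.00 over all tested genes. With the libraries of these 2 groups alone 0 members were called, and 1.63% of all genes.

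HOXA3, an anterior HOXA gene, stood at 30.0 and 24.7 CPM in vehicle and 19.7 and 15.4 CPM with venetoclax. With TAK-981 it stood at 27.0 and 26.1 CPM, within the range of vehicle, and with the combination at 21.5 and 20.0 CPM, between vehicle and venetoclax. It fell by 0.65 on the log2 scale with venetoclax (SE 0.16, edgeR adjusted p = 0.0210). Without vehicle replicate 1 the value was -0.50, without vehicle replicate 2 it was -0.78, and the call was lost in both. HOXA3 shares 2293 bases of its span with HOXA4 on the same strand and 10249 with the antisense gene HOXA-AS3. HOXA-AS3, at 0.384 to 1.55 CPM, also overlaps HOXA4, HOXA5, HOXA6 and HOXA7. How shared reads were counted is not given in the sources used here, so reads of these stretches cannot be assigned to 1 gene.

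HOXA6 stood at 11.8 and 9.60 CPM in vehicle, 10.4 and 13.2 CPM with TAK-981, 5.41 and 7.40 CPM with venetoclax, and 9.37 and 7.57 CPM with the combination. The venetoclax libraries were below all others. It fell by 0.72 (SE 0.22, adjusted p = 0.0484), a call close to the threshold that was lost in 10 of 15 alternatives, among them the removal of any single library other than venetoclax replicate 2. The adjusted p was then at most 0.266, reached without vehicle replicate 1.

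HOXA7, a central HOXA gene often raised together with HOXA9 in leukemia, stood at 45.9 and 45.0 CPM in vehicle, 55.4 and 57.6 CPM with TAK-981, 81.3 and 53.5 CPM with venetoclax, and 61.5 and 58.9 CPM with the combination. Every treated library was above both vehicle libraries. The rise with venetoclax was 0.56 (SE 0.17, adjusted p = 0.0448), and it rested on venetoclax replicate 1, without which it was 0.24 (adjusted p = 0.0671). The call was lost in 11 of 15 alternatives, and leaving out vehicle replicate 1 gave the highest adjusted p, 0.192. The changes with TAK-981 (0.31, SE 0.17, adjusted p = 0.277) and with the combination (0.41, SE 0.17, adjusted p = 0.107) were not called. Both were called without the 2 venetoclax libraries, at adjusted p = 0.00699 and 0.000655.

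HOXA9 (chr7:27162435-27175180, minus strand) stood at 189 and 185 CPM in vehicle, 233 and 214 CPM with TAK-981, 328 and 191 CPM with venetoclax, and 221 and 203 CPM with the combination. As for HOXA7, all 6 treated libraries exceeded both vehicle libraries, and venetoclax replicate 1 was the highest. None of the 3 changes against vehicle was called: 0.26 with TAK-981 (SE 0.20, adjusted p = 0.486), 0.47 with venetoclax (SE 0.21, adjusted p = 0.132) and 0.18 with the combination (SE 0.21, adjusted p = 0.553). Without venetoclax replicate 2 the venetoclax change was 0.81 (adjusted p = 4.06e-06), and without venetoclax replicate 1 it was 0.03 (adjusted p = 0.803). HOXA9 made up 41.9% and 42.2% of all HOX counts in vehicle, and 56.3% and 47.1% with venetoclax.

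HOXB3, the low-level neighbour of HOXB2, was almost lost with venetoclax. It had 25 and 12 counts in the vehicle libraries, 51 and 31 with TAK-981, 0 and 3 with venetoclax, and 24 and 12 with the combination. The ratio of venetoclax to vehicle, from 3 against 37 counts, was 0.0971 (95% interval 0.0192 to 0.307, counting error only). edgeR called the fall (adjusted p = 0.0186), and the call was lost without vehicle replicate 1 (adjusted p = 0.126). With the combination HOXB3 was 1.27 times vehicle (interval 0.780 to 2.07) and 13.1 times venetoclax (interval 4.13 to 66.4), and the latter difference was called (edgeR adjusted p = 0.00624) and kept in all 14 alternatives. The rise with TAK-981, 82 against 37 counts or 2.45 times (interval 1.64 to 3.72), was not called (adjusted p = 0.0920).

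**Figure D3:**
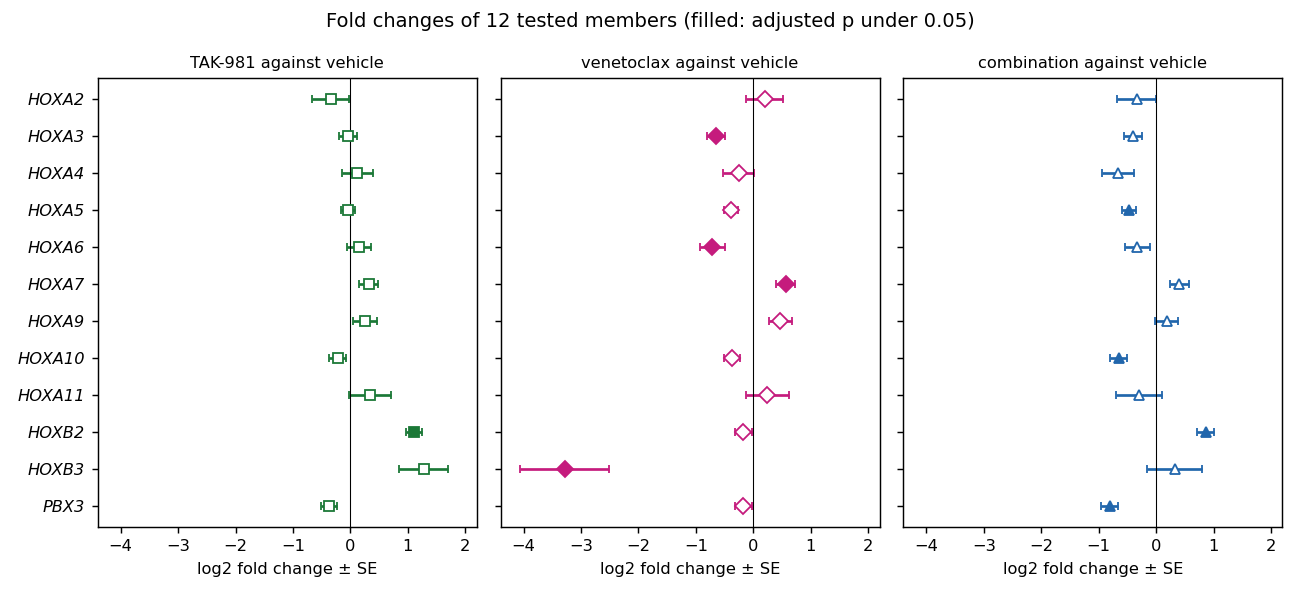
log2 fold change against vehicle with its SE for 12 tested members, 1 panel each for TAK-981, venetoclax and the combination, with filled symbols for adjusted p under 0.05. HOXB2 lies at 1.11 with TAK-981 and 0.86 with the combination, HOXB3 at -3.28 with venetoclax, and PBX3 at -0.81 with the combination.

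The combination against vehicle addresses the joint treatment. HOXB2 rose, and PBX3, HOXA10 and HOXA5 fell, so that edgeR called 4 of the 13 tested members, beside 27.9% of all tested genes. The median log2 fold change was -0.33 over the tested members and 0.01 over all tested genes. Without the 2 venetoclax libraries 8 members were called, HOXA3, HOXA4, HOXA7 and HOXA9 being added, and 47.8% of all genes.

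PBX3 encodes a TALE partner that binds DNA with HOXA9 (chr9:125747345-125967377, plus strand). It stood at 57.4 and 59.0 CPM in vehicle, 45.0 and 45.1 CPM with TAK-981, 58.9 and 44.8 CPM with venetoclax, and 36.0 and 30.4 CPM with the combination. The 2 combination libraries were the lowest of all 8. PBX3 fell by 0.81 with the combination (SE 0.14, edgeR adjusted p = 0.00382), which held in all 16 alternatives, at -0.95 to -0.70. Against venetoclax the combination gave -0.64 (SE 0.15, adjusted p = 0.00869), a call lost without combination replicate 2 (-0.53, adjusted p = 0.0784) or with the libraries of these 2 groups alone (-0.59, adjusted p = 0.0645). TAK-981 alone gave -0.37 (SE 0.14, adjusted p = 0.130), which was called without the 2 venetoclax libraries (adjusted p = 0.00563).

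HOXA10, which acts in early myeloid and lymphoid progenitors, lies at chr7:27170591-27180261. It stood at 61.8 and 65.4 CPM in vehicle, 52.7 and 56.3 CPM with TAK-981, 41.7 and 56.2 CPM with venetoclax, and 42.3 and 38.5 CPM with the combination. Every treated library was below both vehicle libraries. The fall with the combination was by 0.65 (SE 0.14, edgeR adjusted p = 0.00940). Without vehicle replicate 2 it was -0.62 (adjusted p = 0.0741), and without combination replicate 2 it was -0.59 (adjusted p = 0.0894). The changes with TAK-981 (-0.22, SE 0.14, adjusted p = 0.359) and venetoclax (-0.37, SE 0.14, adjusted p = 0.0935) were not called.

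HOXA9 and HOXA10 are neighbours, and their spans share 4590 bases on the same strand, so reads there could have been split or dropped in the counting. The HOXA9 count was 3.06 and 2.82 times the HOXA10 count in vehicle, 4.41 and 3.80 times with TAK-981, 7.86 and 3.40 times with venetoclax, and 5.21 and 5.27 times with the combination. This ratio within a library does not depend on scaling, and it was higher in each of the 6 treated libraries than in either vehicle library.

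HOXA5, a central HOXA gene with a role in myeloid commitment, stood at 43.8 and 39.7 CPM in vehicle, 41.5 and 40.0 CPM with TAK-981, 32.6 and 31.4 CPM with venetoclax, and 32.8 and 27.4 CPM with the combination. The 4 libraries with venetoclax, alone or combined, were below the 4 without it. The fall with the combination was by 0.47 (SE 0.12, edgeR adjusted p = 0.0201), and that with venetoclax, by 0.39 (SE 0.12, adjusted p = 0.0527), missed the threshold. It passed in 8 alternatives, among them DESeq2 (adjusted p = 0.0431), limma-voom (adjusted p = 0.0479) and the replicate block (adjusted p = 0.0400). The combination call was lost without vehicle replicate 1 (-0.40, adjusted p = 0.135), vehicle replicate 2 (-0.54, adjusted p = 0.0653) or combination replicate 2 (-0.35, adjusted p = 0.166).

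HOXA4 stood at 9.69 and 9.86 CPM in vehicle, 9.80 and 11.5 CPM with TAK-981, 11.1 and 5.73 CPM with venetoclax, and 5.99 and 6.41 CPM with the combination. Its change with the combination, -0.66 (SE 0.28), was not called (edgeR adjusted p = 0.108). HOXA2 ranged from 1.46 to 3.58 CPM and HOXA11 from 0.782 to 1.63 CPM over the 8 libraries, and neither was called by edgeR in any of the 6 comparisons over the 8 libraries. HOXA2 was called against venetoclax without venetoclax replicate 2 (adjusted p = 0.0333).

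Against venetoclax, the combination shows the addition of TAK-981 to venetoclax. edgeR called 3 of the 13 tested members, beside 39.6% of all tested genes. HOXB2 and HOXB3 rose and PBX3 fell, with the values given above. The median over the tested members was -0.16 and that over all tested genes -0.02.

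Against TAK-981, the combination shows the addition of venetoclax to TAK-981. edgeR called 0 of the 13 tested members, beside 8.8% of all tested genes. An unadjusted p under 0.05 was found for 5 (HOXA3, HOXA4, HOXA5, HOXA10 and PBX3), and DESeq2 and limma-voom called 0. These 5 had log2 fold changes of -0.36, -0.78, -0.43, -0.43 and -0.44, and the median over the tested members was -0.43, against 0.02 over all tested genes. Without the 2 venetoclax libraries, which this comparison does not use, 6 were called: the same 5 and HOXB2, all lower, with 28.8% of all genes.

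The interaction term subtracts the TAK-981 change seen without venetoclax from that seen with it. edgeR called 0 of the 13 tested members, beside 0.0311% of all tested genes, with 1 at an unadjusted p under 0.05 (HOXB3, 2.34, SE 0.94, adjusted p = 0.233). DESeq2 and limma-voom also called 0 members. For PBX3 the term was -0.26 (SE 0.20, adjusted p = 0.487) and for HOXA10 -0.06 (SE 0.20, adjusted p = 0.898), so the falls with the combination were not shown to differ from the sum of the 2 single-drug changes. Without venetoclax replicate 2 there were 4 calls among 14 tested members, HOXA4, HOXA7, HOXA9 and PBX3, and 33.9% of all genes were then called.

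MEIS1, the partner most often raised with HOXA9 in leukemia, was near 0. It had 1 and 0 counts in vehicle, 0 and 0 with TAK-981, 0 and 1 with venetoclax, and 10 and 3 with the combination. The ratio of the combination to vehicle, from 13 against 1 counts, was 17.0 (95% interval 2.55 to 721). TAK-981 had 0 counts, and with a floor of 3 counts over that group the combination was 5.11-fold higher. The floor takes the 13 counts as exact, so 5.11 is not a lower limit. At its highest MEIS1 reached 0.457 CPM, in combination replicate 1. HOXD12, the best-covered HOXD gene, had 2 and 2 counts in vehicle, 2 and 4 with TAK-981, 0 and 5 with venetoclax, and 5 and 8 with the combination, 4.24 times vehicle (interval 1.31 to 17.9). HOXC9, the best-covered HOXC gene, had 3 and 1 counts in vehicle and 0 to 2 in each other library.

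Other TALE genes were well expressed. Of 9 such cofactor genes 4 had enough counts for a test. MEIS2, a close relative of MEIS1, stood at 106 to 107 CPM in vehicle and 104 to 125 CPM in the treated libraries. PBX2 stood at 120 to 137 CPM in vehicle and 131 to 175 CPM in the treated libraries. Per length, PBX2 was at 29.6 CPM per kb and MEIS2 at 9.90 CPM per kb in vehicle, beside 14.9 for PBX3. edgeR called 0 of these 4 in each of the 6 comparisons. An unadjusted p under 0.05 was found only for PBX2 in the combination against vehicle (0.35, SE 0.14, adjusted p = 0.0829) and for TGIF2 in the combination against venetoclax (-0.28, SE 0.12, adjusted p = 0.0837), and DESeq2 and limma-voom called 0. PBX4, MEIS3, PKNOX2 and TGIF1 held 0 to 16 counts each over all libraries.

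Some antisense RNAs of the clusters also passed the test. The count table lists 22 noncoding RNAs of the HOX clusters, of which 6 were tested. edgeR called 2 with TAK-981 (33.3%), 3 with venetoclax (50%) and 1 with the combination (16.7%), each against vehicle, beside 12.2%, 20.8% and 27.9% of all tested genes. HOXA10-AS (chr7:27168619-27171915, plus strand) is transcribed opposite to HOXA9 and HOXA10. It lies within the span of HOXA9 and reaches into that of HOXA10. It stood at 17.3 and 16.6 CPM in vehicle and 55.1 and 49.7 CPM with TAK-981. With venetoclax it stood at 44.9 and 28.4 CPM, and with the combination at 88.0 and 90.9 CPM. No group overlapped vehicle, and the combination was highest.

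HOXA10-AS rose by 1.63 with TAK-981 (SE 0.19, edgeR adjusted p = 0.00113), by 1.10 with venetoclax (SE 0.19, adjusted p = 0.00660) and by 2.40 with the combination (SE 0.19, adjusted p = 9.46e-05). The TAK-981 and combination calls held in all 16 alternatives. The venetoclax call was lost without vehicle replicate 1 or vehicle replicate 2, and with the vehicle and venetoclax libraries alone (adjusted p = 0.0667). As a share of the HOXA10 count, HOXA10-AS went from 27.9% and 25.4% in vehicle to 104% and 88.4% with TAK-981, 108% and 50.6% with venetoclax, and 208% and 236% with the combination. HOXA10-AS overlaps HOXA10 by 1325 bases and lies whole, over 3297 bases, within the span given to HOXA9, so without strand its reads and theirs cannot be told apart in these stretches.

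In the HOXB cluster HOXB-AS1 (chr17:48543551-48551250, plus strand) stood at 8.95 and 7.21 CPM in vehicle, 17.2 and 13.3 CPM with TAK-981, 3.73 and 2.38 CPM with venetoclax, and 9.42 and 8.67 CPM with the combination. It fell by 1.45 with venetoclax (SE 0.25, edgeR adjusted p = 0.00680). That call was lost without vehicle replicate 1, and with the vehicle and venetoclax libraries alone (adjusted p = 0.0625). The rise with TAK-981, 0.92 (SE 0.22, adjusted p = 0.0288), was lost without any 1 library of the vehicle, TAK-981 or combination groups (adjusted p up to 0.237). HOXB-AS3, which overlaps HOXB3 over 40643 bases, had 21 and 28 counts in vehicle, 38 and 26 with TAK-981, 1 and 1 with venetoclax, and 25 and 11 with the combination. The ratio of venetoclax to vehicle was 0.0489 (95% interval 0.00576 to 0.186), called by edgeR (adjusted p = 0.00368) and kept in all 14 alternatives. HOXB3, HOXB-AS1 and HOXB-AS3 each fell with venetoclax. HOXB2, at the end of the same stretch, was not called, but was called lower without venetoclax replicate 1 (-0.43, adjusted p = 0.00333). HOXB-AS1 overlaps HOXB2 by 1439 bases and HOXB3 by 2381 bases on the opposite strand, so here too, as in the stretch HOXB3 shares with HOXB-AS3, their reads could not be separated without strand.

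**Figure D4:**
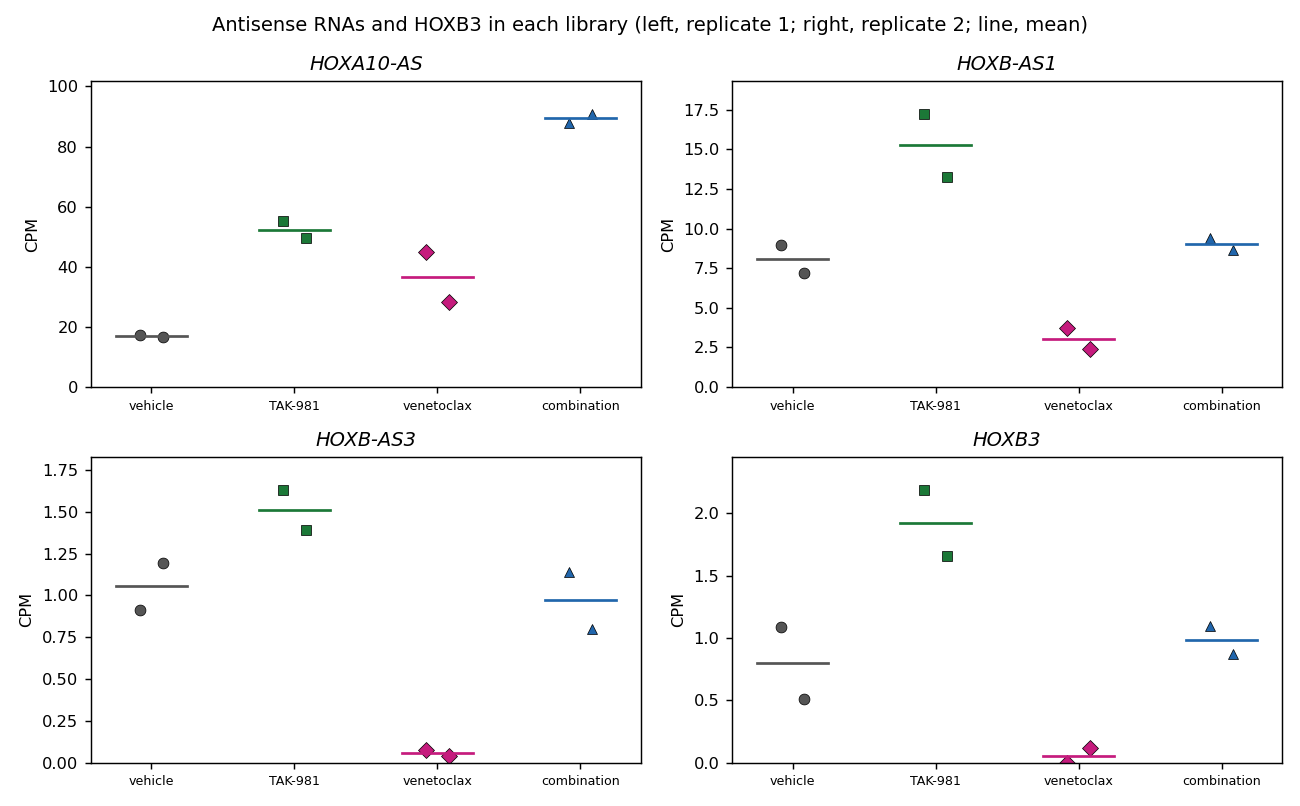
CPM of HOXA10-AS, HOXB-AS1, HOXB-AS3 and HOXB3 in each library (left point replicate 1, right point replicate 2, line the mean of 2), with the y axis from 0. HOXA10-AS goes from 16.6 and 17.3 CPM in vehicle to 88.0 and 90.9 CPM with the combination, and the other genes are lowest with venetoclax.

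HOTAIRM1, a noncoding RNA of the HOXA cluster that accompanies myeloid maturation, ranged from 2.22 to 4.48 CPM and was not called in any of the 6 comparisons. The microRNA genes of the clusters, such as MIR196B and MIR10A, were listed at 0 in every library. Whether these libraries capture microRNAs was not tested, so the 0 does not tell whether they are expressed.

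Genes that keep HOX clusters on or off moved in part. Of 30 tested Polycomb genes, 11 were called with the combination, all lower (36.7%, beside 27.9% of all genes), and the median was -0.29. At the same time 3 components of the Polycomb complex that ubiquitinates histone H2A fell with the combination in all 16 alternatives. BMI1 stood at 227 and 231 CPM in vehicle and 127 and 99.8 CPM with the combination, a fall by 1.01 (edgeR adjusted p = 0.000634). RNF2 fell by 0.87 (adjusted p = 0.000641) and PHC1 by 1.05 (adjusted p = 0.000777). EZH2, the histone H3 methyltransferase, was not called (-0.21, adjusted p = 0.445), nor was CBX2 (-0.29, adjusted p = 0.234).

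Of 27 tested genes of the KMT2A and menin complexes and their elongation partners, 3 rose and 2 fell with the combination. This was 18.5% called, beside 27.9% of all genes, with a median of 0.12. Against vehicle, 2 rose with TAK-981 (7.41% called, beside 12.2%) and 8 with venetoclax (29.6%, beside 20.8%), and none fell. KMT2A, which stood at 1179 and 932 CPM in vehicle and 818 and 733 CPM with the combination, was not called (-0.44, edgeR adjusted p = 0.111). MEN1, which encodes menin, was not called either (0.23, adjusted p = 0.347), nor was DOT1L, the histone H3 methyltransferase tied to elongation (-0.07, adjusted p = 0.717). Of 21 tested genes among other regulators of HOX genes, 4 rose and 1 fell with the combination (23.8% called, beside the same 27.9%). The one that fell was RAD21, a subunit of the cohesin ring, by 0.64 (edgeR adjusted p = 0.00644), a call lost without vehicle replicate 2 or combination replicate 2. TRIM24, a chromatin reader and coregulator of retinoic acid receptors, rose by 1.47 with TAK-981 (adjusted p = 0.000574) and by 1.72 with the combination (adjusted p = 0.000139), from 115 and 112 CPM in vehicle to 319 and 310 CPM and to 367 and 382 CPM. GFI1, a transcriptional repressor active in blood progenitors, rose by 1.60 with the combination (adjusted p = 0.000341).

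Of 19 tested genes reported as targets of HOXA9 and MEIS1, 3 rose and 6 fell with the combination (47.4% called, beside 27.9% of all genes), with a median of -0.07. BCL2, the target of venetoclax, stood at 289 and 298 CPM in vehicle, 150 and 158 CPM with TAK-981, 236 and 242 CPM with venetoclax, and 109 and 119 CPM with the combination. It fell by 0.93 with TAK-981 (edgeR adjusted p = 0.000503) and by 1.37 with the combination (adjusted p = 4.20e-05), in all 16 alternatives of each. MSI2, an RNA-binding protein of blood stem cells, fell by 1.03 with the combination (adjusted p = 0.000209), and ID2, an inhibitor of helix-loop-helix factors, rose by 1.65 (adjusted p = 0.000249). ZNF521, from 4 counts in vehicle to 89 with the combination, rose 29.0 times (95% interval 10.9 to 109). MYB, the classical target of HOXA9, was not called in the combination (-0.01, adjusted p = 0.967), and FLT3 was near 0, at no more than 0.0869 CPM.

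Coding genes that flank the clusters were measured beside them. SNX10, on the HOXA side, stood at 132 and 144 CPM in vehicle and 49.4 and 47.0 CPM with the combination, a fall by 1.52 (edgeR adjusted p = 4.20e-05). LNPK, beside the HOXD cluster, fell by 1.24 (adjusted p = 0.000746). Of the 7 tested flanking genes 4 were called with the combination (57.1%, beside 27.9% of all genes), all lower.

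The identity of the cells was checked on marker lists. All 12 markers of KG1a cells were tested, and their summed level ran from 4016 to 4129 CPM in vehicle and from 3857 to 4568 CPM in the treated libraries, CD34 being at 982 and 953 CPM in vehicle. Erythroid, monocyte and granulocyte, stromal and epithelial markers summed to at most 1.53 CPM in any library. The endothelial list holds genes that immature blood cells also express. Of its 6 genes 4 had enough counts for a test, and 1, CDH5, the endothelial cadherin, was at 0 in every library. The list summed to 43.2 to 45.1 CPM in vehicle and 65.5 to 79.8 CPM with TAK-981. It summed to 28.3 to 30.7 CPM with venetoclax and 63.5 to 73.4 CPM with the combination. This order is that of HOXB2, and its part in the HOXB2 result was not tested. T cell markers, some of which KG1a expresses, summed to 38.6 to 52.2 CPM in vehicle and 24.1 to 28.2 CPM with the combination, and B cell markers to 3.40 to 6.12 CPM over all libraries.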

How the data were processed

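Single-read RNA sequencing covered 8 KG1a libraries, 2 each for vehicle, TAK-981, venetoclax and the combination, grouped by the submitters' labels. On the library method the sources conflict: ribosomal depletion stands in the design text and a SMART-Seq low-input kit in the labels' protocols. The authors deposited whole-number, unnormalized counts of reads for 25168 genes, positioned on hg38. The submitters' processing notes list Trimmomatic, STAR 2.6.0, HTSeq 0.11.1 and edgeR, without saying what each did. Not given in the sources used here are the annotation release, the use of strand and the handling of reads shared between genes, which leaves overlapping genes uncertain.

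The main test was edgeR's quasi-likelihood F test, two-sided (edgeR 4.0.16 in R 4.3.3). After filterByExpr by group, 12843 genes were fitted with TMM factors and robust dispersions in a single model with 4 group means. Its p-values were adjusted by Benjamini-Hochberg across these genes, a gene was called below 0.05, and an adjusted p with no tool named is from this model. Standard errors were approximated by dividing the size of the log2 fold change by the root of F. CPM use TMM-scaled library sizes, and a prior count of 2 entered only log2 CPM. The test was also run on simulated counts with the same dispersion in every group. That run does not cover the wider spread of the venetoclax libraries, and no result here rests on it. Intervals of count ratios are exact at 95% and cover counting error only.

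The members and the gene lists were chosen with earlier results of these data known. Members were named, and those called in any comparison, MEIS1, PBX3 and the best-covered member of each cluster were given in full. Of each other list, up to 4 called genes with the smallest p against vehicle were eligible, with KMT2A, MEN1, DOT1L, EZH2, BMI1, CBX2, FLT3, MYB and BCL2. CD34 and CDH5 were named as markers, and the TALE genes, HOTAIRM1, MIR196B and MIR10A after their values were seen. Some single-gene results that this rule takes are not reported here. List members were matched by symbol. As alternatives, the fit was repeated with size factors of DESeq2, with unfiltered genes, with genes above 1 CPM on average, with a block for the replicate number, without single libraries, without both venetoclax libraries and with the compared groups alone, and the test was replaced by DESeq2 1.42.0 or limma-voom (limma 3.58.1).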

Additional observations from a re-analysis of the deposited data

How the results depend on the processing

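The count of called members was 1, 4, 4, 3, 0 and 0 of 13 for TAK-981, venetoclax and the combination against vehicle, the combination against venetoclax, the combination against TAK-981, and the interaction. Leaving out 1 library gave 1 to 7, 0 to 7, 2 to 8, 2 to 8, 0 to 7 and 0 to 4, of 13 to 15 tested members, the highest values without venetoclax replicate 1 or venetoclax replicate 2. The shares of all genes called moved too, over 2.55% to 29.5% for TAK-981, 1.93% to 40.9% for venetoclax, 10.9% to 46.6% for the combination against vehicle, 18.2% to 54.9% against venetoclax, 0.496% to 28% against TAK-981 and 0% to 33.9% for the interaction. Without venetoclax replicate 1, MEIS1, which is not among the 13, was in the 8 against vehicle and the 7 against TAK-981. With no low-count filter 22 members were tested. The counts were then 3 for TAK-981 (12.7% of all genes called), 7 for venetoclax (20.1%) and 6 for the combination against vehicle (23.7%). They were 3 for the combination against venetoclax (32%) and 5 for the combination against TAK-981 (10.3%, MEIS1 among them, from 15 counts). For the interaction the count was 1 (HOXA9, beside 6.06%). With the compared groups alone they were 7 for TAK-981 (32.5% of all genes called), 0 for venetoclax (1.63%), 7 for the combination against vehicle (45.6%), 2 for the combination against venetoclax (20.3%, PBX3 being lost) and 6 for the combination against TAK-981 (29.8%). Without both venetoclax libraries they were 6 for TAK-981 (30.2%), 8 for the combination against vehicle (47.8%) and 6 for the combination against TAK-981 (28.8%). The cause was not tested. The wider spread between the venetoclax libraries is given above. DESeq2 called 266 of all genes for the interaction where edgeR called 4.

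No member changed direction while called. Of 1190 recomputed member values 1062 kept their side of the threshold, 95 passed it newly and 33 lost it. Whether the replicate numbers pair the samples is not settled here. Same-numbered libraries deviated together with correlations of -0.0095 to 0.207, which with 2 libraries per group cannot exclude pairing. With the replicate block the counts were 1, 4, 4, 3, 1 and 0, in the order of comparisons given above. Beside them, 13.5%, 23.3%, 29.6%, 41.3%, 9.76% and 0.187% of all genes were called. The 1 call for the combination against TAK-981 was HOXA5 (adjusted p = 0.0450). With venetoclax HOXA6 missed the threshold (adjusted p = 0.0515) while HOXA5 passed it (-0.38, adjusted p = 0.0400). Depth limits HOXB3, HOXB-AS3, MEIS1, HOXD12 and HOXC9, whose values rest on few counts.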

Other observations

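Homeobox genes outside the HOX clusters also changed. Of 26 tested genes of this kind 5 were called with TAK-981 (3 higher, 2 lower), 5 with venetoclax (2 higher, 3 lower) and 8 with the combination (4 higher, 4 lower), each against vehicle, which is 19.2%, 19.2% and 30.8%, beside 12.2%, 20.8% and 27.9% of all tested genes. UNCX, a homeodomain factor of the developing axial skeleton and nervous system, stood at 29.8 and 30.8 CPM in vehicle, 7.65 and 9.68 CPM with TAK-981, 46.5 and 35.4 CPM with venetoclax, and 7.64 and 8.81 CPM with the combination. The 4 libraries with TAK-981 were the lowest. UNCX fell by 1.81 with TAK-981 (edgeR adjusted p = 0.000503) and by 1.89 with the combination (adjusted p = 0.000223), in all 16 alternatives of each.

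DLX1, a distal-less homeobox gene, rose by 1.09 with the combination (edgeR adjusted p = 0.00470), from 5.30 and 3.88 CPM in vehicle to 9.10 and 10.5 CPM, a call lost without vehicle replicate 2 (adjusted p = 0.0537). HOPX, an atypical homeodomain protein without DNA binding that marks primitive leukemia cells, stood at 247 and 282 CPM in vehicle, 136 and 174 CPM with venetoclax, and 237 and 288 CPM with the combination. It fell by 0.77 with venetoclax (adjusted p = 0.00868). That call was lost without vehicle replicate 1 or vehicle replicate 2, and with the vehicle and venetoclax libraries alone (adjusted p = 0.0635). HOPX was higher with the combination than with venetoclax by 0.76 (adjusted p = 0.00395), in all 15 alternatives.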
